A study of Mus musculus with 55 samples.

Results

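In 5 RNA sequencing comparisons of oocytes, 80 mouse genes named for proteins of the cytosolic ribosome were followed. They were taken by name from the 33924 genes of one count table: names that begin with Rpl or Rps and a digit, and Rplp0, Rplp1, Rplp2 and Rpsa. Of these, 47 carry names of the large subunit and 33 of the small subunit. The name rule left out 152 genes whose names hold -ps (most of them processed copies of ribosomal protein mRNAs), 5 names that end in the letter l and 10 Rps6k kinase genes. It kept 4 genes that stand apart from the core set. Rps19bp1 encodes a protein that binds a ribosomal protein, Rpl7l1 and Rpl22l1 are paralogs, and Rps4y2 is named as a copy of Rps4x. All 80 genes were found by identical exon positions in the second count table of 37310 features, and all 80 passed the filter on low counts in each comparison.

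The ribosome is built from rRNA and one copy each of most of these proteins, so cells normally make them in balanced amounts. Their mRNAs are among the most abundant and most stable of a growing cell. Most begin with a C followed by a run of pyrimidines, the 5′ terminal oligopyrimidine (TOP) tract, through which mTOR signalling controls their translation. Oocytes make and store ribosomes while they grow, and transcription then falls silent before meiosis resumes.

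The study concerned DHX36 (also called RHAU), a helicase that unwinds G-quadruplexes, folded structures of guanine-rich RNA or DNA. Growing oocytes gave 3 libraries labelled Dhx36_sko, from mice that the protocol text writes as Dhx36fl/fl;SKO, and 3 control libraries. A second experiment gave 1 library labelled rhau-sko, 2 labelled rhau-sko with DRB, 2 labelled c and 1 labelled c with DRB. DRB is an inhibitor of CDK9, the kinase that releases paused RNA polymerase II. Germinal vesicle (GV) oocytes gave 3 libraries labelled cPDS for 12 h and 3 labelled GV-C (written GV_C here). The GV-C labels give no time, so by the labels cPDS and the 12 h cannot be told apart. cPDS, short for carboxypyridostatin, binds G-quadruplexes of RNA and holds them folded. The last experiment gave 3 libraries labelled Dhx36 3 h Trim21 and 3 labelled Dhx36 3 h control. Trim-Away uses the ubiquitin ligase TRIM21 to degrade a protein that a delivered antibody recognises. The labels do not expand sko, and they do not give the genotype of the controls, the Cre driver or the age of the mice. The stage of the oocytes in the second and in the Trim experiment is likewise not given apart from protocol text shared by all samples. Nothing says that replicates came from separate animals or cultures, so the p-values measure the spread between these libraries, which may be technical.

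The 24 libraries used held 7452742 to 65444652 counts. 2 further libraries of the second experiment, with 127927 and 129192 counts, were left out by the rule that defines the gene set and its groups. 1 of them, the library labelled rhau-sko that is replicate 6, held 6 counts of Dhx36, or 46.9 CPM of its total counts, where the 2 c libraries held 46.9 and 42.2 CPM and rhau_sko replicate 5 held 7.63, so its target gene goes against its label. Dhx36, the targeted gene, was lower in 3 comparisons: it averaged 2.17 ± 0.582 normalised CPM (counts scaled to 1000000 per library, with factors that make libraries comparable; SD, n = 3) in growing sko oocytes against 8.77 ± 1.89 in their controls (SD, n = 3). It averaged 5.95 ± 1.61 in the sko libraries of the second experiment against 42.6 ± 4.58 in the c libraries, and 7.72 ± 1.32 in Trim21 oocytes against 30.5 ± 1.33 in their controls (SD, n = 3 each). After cPDS Dhx36 was higher, at 35.5 ± 3.72 against 21.5 ± 1.302 in GV_C (SD, n = 3 each). These are mRNA values, whereas Trim-Away acts on the protein, which these libraries do not measure. Why the mRNA was lower in Trim21 oocytes was not tested. The 13 oocyte markers took 1.48% to 3.62% of all counts and none of them was at 0 in any of these libraries.

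First bases of the transcripts and the region before them were read for 58 of the 80 genes from RefSeq (GRCm38.p6). A gene with more than a single annotated start was counted for a pattern when any of its starts had it. Of the 58, 13 (22.4%) began with C and had at least 5 pyrimidines in a row from that base, against 813 of 27025 genes of the same table (3.01%). The 13 were Rpl14, Rpl15, Rpl28, Rpl35, Rpl35a, Rpl38, Rplp2, Rps10, Rps15a, Rps18, Rps21, Rps27 and Rps6. The annotated first base decides this count, and a start placed a base away loses the match. Shown here are the 5 longest tracts, then Rps27 and Rplp2, whose levels are described further on. Each has 10 bases before the start and 20 from it, 5′ to 3′ on the gene's strand, with the pyrimidine tract in capitals.
Rpl15 (chr14:18270967-18270996, minus strand): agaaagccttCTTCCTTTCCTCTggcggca
Rpl35 (chr2:39005112-39005141, minus strand): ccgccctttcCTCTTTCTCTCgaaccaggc
Rps10 (chr17:27635225-27635254, minus strand): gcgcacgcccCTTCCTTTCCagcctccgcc
Rps18 (chr17:33955646-33955675, minus strand): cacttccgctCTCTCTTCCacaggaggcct
Rps6 (chr4:86857348-86857377, minus strand): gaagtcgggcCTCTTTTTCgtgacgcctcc
Rps27 (chr3:90213629-90213658, minus strand): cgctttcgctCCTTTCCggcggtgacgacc
Rplp2 (chr7:141447641-141447670, plus strand): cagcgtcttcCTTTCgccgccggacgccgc

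A pattern of 4 runs of GGG, 1 to 7 bases apart on either strand, which is the usual letter pattern of a G-quadruplex, lay within 250 bases before to 50 bases after the start in 6 of the 58 genes (10.3%). Over all 27025 genes the share was 20.4%. In Rps21 the G runs lay on the gene's own strand, from base 29 after one of its annotated starts, and they are shown here in capitals.
Rps21 (chr2:180257477-180257495, plus strand): GGGGccGGGctGGGccGGG
The other 5 genes were Rpl31, Rpl6, Rps10, Rps19 and Rpsa. Of these, Rpl6, Rps10 and Rps19 also had G runs on the gene's own strand, before an annotated start. The letters CCGGAAG, read by ETS family factors such as GABP, were in the same window on either strand in 22 of the 58 genes (37.9%) and in 9.93% of all genes. TATAAA was in 7 (12.1%) and in 15.7% of all genes. These matches describe letters and do not show binding or folding.

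Levels per length of exon (TPM, counts over annotated exon length, scaled to 1000000 per library) differed in kind between the experiments. In growing oocytes the set was uneven. Rpl17, a protein of the large subunit near the exit of the nascent peptide tunnel, reached 1374 ± 59.0 TPM in sko and 2660 ± 279 TPM in control oocytes (SD, n = 3 each), and it was the highest of the 80 in both groups. The 5 highest genes held 46.5% of the summed level of all 80 in growing sko oocytes and 54.6% in growing controls. In the other 8 groups that share was 22.5% to 28.5%.

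In growing sko oocytes 14 of the 80 genes were under 10 TPM, and in growing controls 13. In the other groups 0 to 3 were. Rpl38 and Rps21 were at 293 ± 54.4 and 150 ± 24.9 TPM in GV_C and at 9.18 ± 3.85 and 5.39 ± 2.92 TPM in growing controls (SD, n = 3 each). Rps29 and Rpl30 were at 828 ± 72.4 and 45.7 ± 3.95 TPM in GV_C and at 30.7 ± 13.2 and 1.84 ± 0.391 TPM in growing controls. Rps2 and Rpl17 stood the other way round, with 76.5 ± 4.22 and 765 ± 4.55 TPM in GV_C and 272 ± 15.5 and 2660 ± 279 TPM in growing controls. Here a difference of stage and a difference between experiments cannot be told apart.

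The order of levels was much the same in all groups except the growing ones. Across the 80 genes, the level in GV_C had a Spearman rho of 0.930 to 0.971 with the 7 groups of the second, cPDS and Trim experiments, and of 0.583 with growing controls. Growing sko and growing control oocytes had a rho of 0.972 with each other. These correlations are descriptions over 80 genes that share libraries and exon lengths. By the mean over the libraries, the lowest genes were Rpl9, Rpl27a, Rpl12, Rpl22 and Rpl10a, at 11.04 to 25.1 TPM. The annotated length of Rpl9 is 3080 bases, and where retained or rare exons add to a gene's length its TPM is understated.

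Taken as a share of all counts, the 80 genes together were lower in growing sko oocytes, with 0.457%, 0.544% and 0.537% against 0.592%, 0.649% and 0.745% in growing controls. The groups did not overlap, and the means were 0.513% ± 0.0483 against 0.662% ± 0.0772 (SD, n = 3 each). In the second experiment the 2 libraries rhau_sko_DRB held 1.07% and 0.942% and the 1 c_DRB library 1.11%. Without DRB the share was 0.766% in rhau_sko and 0.897% and 0.924% in c. Among these libraries both genotypes thus had the higher share with DRB, resting on 1 c_DRB and 1 rhau_sko library. The left-out c_DRB replicate 4 held 0.7315%, below both c libraries, from 945 counts of the 80 genes. The left-out rhau_sko replicate 6 held 0.886%, from 1133 counts. The share was 1.05%, 0.995% and 0.998% after cPDS, against 0.862%, 1.01% and 0.930% in GV_C, where the groups overlapped. It was 1.01%, 1.12% and 1.05% in Trim21 oocytes, against 1.13%, 1.17% and 1.29% in their controls, without overlap. In bulk libraries such as these, fewer cells of a type and less RNA per cell cannot be told apart.

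**Figure D1:**
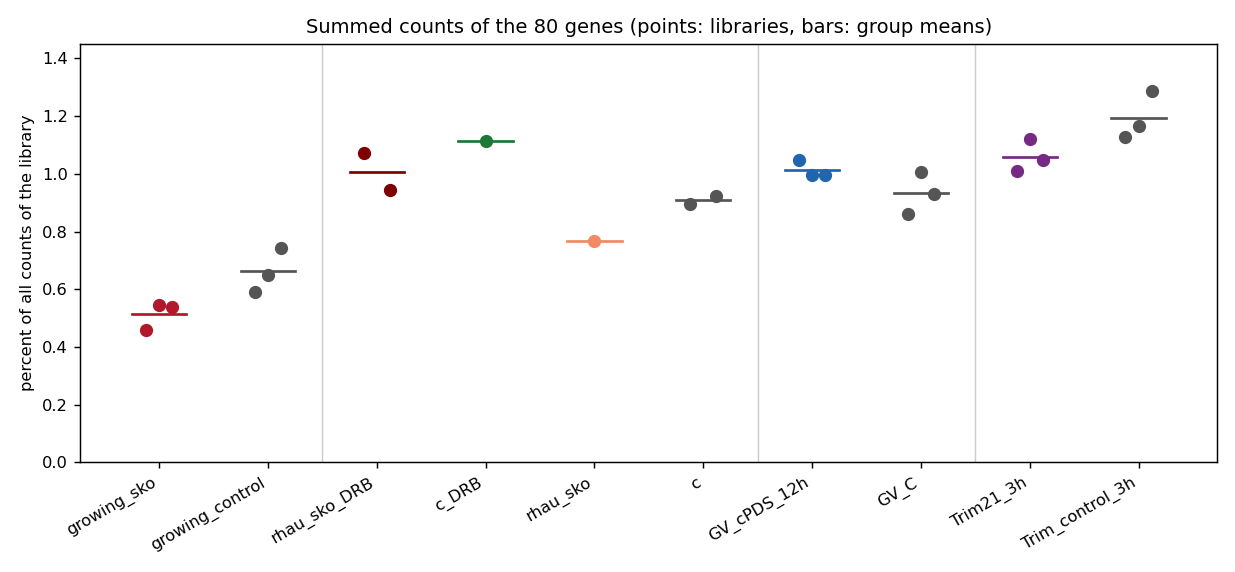
Summed counts of the 80 genes as a percent of all counts (y axis, from 0) in each of 24 libraries, by group (x axis); points are libraries, bars are group means, and thin lines part the experiments. The 3 growing sko libraries lie between 0.457% and 0.544%, all below the growing controls, and both genotypes of the second experiment lie higher with DRB than without.

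In growing oocytes, loss of Dhx36 went with lower levels of many ribosomal protein mRNAs of both subunits. With edgeR at an adjusted p under 0.05, 37 of the 80 genes were lower and 6 higher in sko oocytes, against a background of 25.2% lower and 28.5% higher among all 14081 genes tested (53.7% either way). The median log2 fold change was -0.43 for the 80 genes and 0.02 for all genes. Of the 47 genes with names of the large subunit 24 were lower and 2 higher. Of the 33 with names of the small subunit 13 were lower and 4 higher, with Rps19bp1 among the 4. The sko libraries lay all below the controls for 32 genes and all above for 6, where the background was 28.6% and 32.2%. Scaled by library size alone the median of all genes moved to 0.21. The median of the 80 was then -0.25, with 26 called lower and 6 higher.

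Among the large subunit genes, Rpl17 (mm9, chromosome 18, 75160131 to 75163035, plus strand) read 403, 440 and 437 normalised CPM in sko oocytes and 944, 929 and 1030 in controls. All sko libraries stood at less than every control, and the log2 fold change was -1.18 ± 0.12 (SE; edgeR adjusted p = 6.5e-07). Rpl21 read 13.4, 19.1 and 19.4 CPM in sko oocytes and 40.5, 38.2 and 49.9 in controls, a log2 fold change of -1.31 ± 0.16. Rpl13 and Rpl18, both on the outer face of the large subunit, averaged 12.4 ± 2.76 and 7.30 ± 0.996 CPM in sko oocytes against 28.9 ± 4.23 and 16.5 ± 3.62 in controls (SD, n = 3 each). Their log2 fold changes were -1.22 and -1.17, and neither gene's groups overlapped.

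Genes of the small subunit were lower as well. Rps9, which lines the path of the mRNA into the ribosome, read 71.2, 84.5 and 79.4 CPM in sko oocytes and 156, 162 and 204 in controls, with no overlap (log2 fold change -1.15 ± 0.13, edgeR adjusted p = 3.2e-06). Rps4x, the X-linked copy of Rps4, averaged 34.8 ± 3.89 CPM in sko oocytes against 74.0 ± 10.7 in controls (log2 fold change -1.09). Rps6, the protein that S6 kinases phosphorylate, averaged 131 ± 11.5 against 216 ± 17.6 CPM (log2 fold change -0.72; SD, n = 3 each). Rpsa, which also occurs outside the ribosome as a laminin receptor, was lower too, at 16.2 ± 2.57 CPM in sko oocytes against 26.02 ± 5.44 in controls (log2 fold change -0.68). In the stalk, where elongation factors bind, Rplp0 fell to 472 ± 30.5 CPM in sko oocytes, against 737 ± 48.6 in controls (log2 fold change -0.64; SD, n = 3 each).

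6 genes rose against this trend. Rpl9 (mm9, chromosome 5, 65779603 to 65782682, minus strand) read 5.47, 3.96 and 6.21 CPM in sko oocytes and 1.36, 1.13 and 2.23 in controls. It was 3.31 times as high in sko oocytes, from a low level, with a log2 fold change of 1.73 ± 0.29 (edgeR adjusted p = 0.000114). Rps27, which carries a zinc finger and starts with the TOP tract shown above, read 26.3, 36.5 and 30.4 CPM in sko oocytes and 11.6, 14.9 and 19.7 in controls (log2 fold change 1.01 ± 0.18). Rps23, a protein of the decoding centre, read 24.03, 25.3 and 25.9 CPM in sko oocytes and 10.7, 13.3 and 16.7 in controls (log2 fold change 0.89 ± 0.16). None of the 3 overlapped between the groups. Rps19bp1 averaged 95.4 ± 12.9 CPM in sko oocytes against 52.0 ± 5.63 in controls (SD, n = 3 each), and Rpl7 and Rps3 rose by log2 fold changes of 0.53 and 0.36.

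Rps27a, whose protein is made as a fusion with ubiquitin, averaged 168 ± 21.3 CPM in sko oocytes and 192 ± 40.3 in controls, and its libraries overlapped (SD, n = 3 each; edgeR adjusted p = 0.306). Rpl22 and its paralog Rpl22l1 did not pass the test either, with log2 fold changes of -0.07 ± 0.18 and -0.23 ± 0.21. Rpl7l1, a paralog of Rpl7 found in assembling ribosomes of human cells, was lower by a log2 fold change of -0.65.

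**Figure D2:**
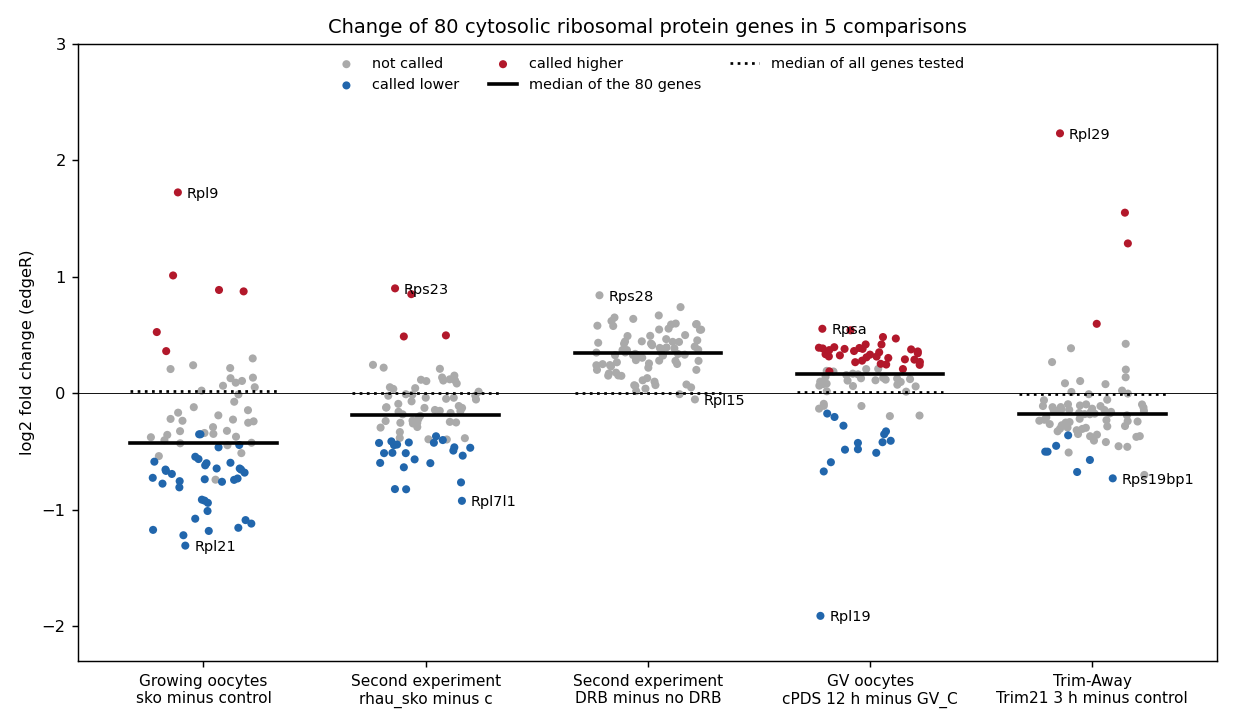
Log2 fold change (y axis) of each of the 80 genes in 5 comparisons (x axis); points are genes, coloured by edgeR call at an adjusted p under 0.05, solid bars are medians of the 80 genes and dotted bars medians of all genes tested. The solid bar lies at -0.43 in growing oocytes, -0.19 for rhau_sko, 0.35 for DRB, 0.17 for cPDS and -0.18 for Trim21, and Rpl9, Rpl19 and Rpl29 stand far from the rest of their column.

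Genes around the ribosome were counted from lists of related function, to be read beside the background of 25.2% lower and 28.5% higher. Of 74 genes of the mitochondrial ribosome 32 were lower and 10 higher in growing sko oocytes. Of 16 other TOP mRNAs 9 were lower and 1 higher, and the elongation factor genes Eef1a1 and Eef2 were among those lower, with log2 fold changes of -0.78 and -1.08. Both tested ribosomal proteins with other names, Gnb2l1 (RACK1) and Fau, were lower by log2 fold changes of -0.62 and -0.56. Of 102 ribosome assembly factors 35 were lower and 21 higher, led by Nle1 with a log2 fold change of 4.85. Of 25 regulators of TOP mRNAs and mTOR 11 were higher and 4 lower, among them Rragd, a Rag GTPase (4.49), and Eif4ebp1, a translational repressor (2.63). Of 17 importers and chaperones of ribosomal proteins 10 were lower and 1 higher. Of 15 elongation and termination genes 6 were lower and 2 higher. Of 9 genes of ribosomal stress and p53 4 were higher and 3 lower. This list ran from -1.38 to 2.39, with Btg2 at 2.39 and Mdm2 at 1.90. Of 19 genes of RNA polymerase I and rRNA transcription 6 were higher (31.6%) and 5 lower (26.3%), near the background.

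Granulosa markers moved with the growing comparison. The 15 listed genes together took 0.134% to 0.148% of counts in sko oocytes against 0.0871% to 0.0991% in controls. Fshr was at 37.5 to 41.1 CPM in sko oocytes and 0.281 to 0.390 in controls, whereas Amh and Foxl2 were at or under 0.156 CPM in all 6 libraries. Of the 14 listed immune, endothelial and blood markers 5 passed the filter on low counts, with 2 higher and 2 lower in sko oocytes. Among them Ptprc, a marker of white blood cells, read 1.04 to 2.47 CPM in sko oocytes and was at 0 in the 3 controls. Alas2, a marker of red blood cells, was too low to be tested, with 1, 0 and 1 counts in sko oocytes and 4, 5 and 6 in controls. The whole list took 0.00205% to 0.00229% of counts in sko oocytes against 0.00168% to 0.00183% in controls. The part of these transcripts in the changes of the ribosomal protein genes was not tested.

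The second experiment asked the same genotype question in other libraries. With DRB as a covariate, 23 of the 80 genes were lower and 4 higher in the sko libraries (edgeR), where the background was 16.8% lower and 19.2% higher of 16784 genes (36% either way). The median log2 fold change was -0.19 for the 80 genes and 0.01 for all genes. The sko libraries were all below for 12 genes (background 23.5%) and all above for 5 (background 24.7%). The count called lower was 9 without rhau_sko replicate 5, 7 without DRB as covariate, 8 in the contrast with DRB alone and 6 with all 8 libraries. Without c_DRB replicate 3, 1 gene was called higher.

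Of the large subunit genes, Rpl18 read 27.4, 45.0 and 37.5 CPM in the sko libraries (rhau_sko, then the 2 with DRB) and 50.6, 49.2 and 71.0 in the c libraries (2 c, then c_DRB). No sko library reached a c library, and the log2 fold change was -0.82 ± 0.13 (edgeR adjusted p = 0.000734). Rpl13 read 39.1, 62.1 and 53.6 CPM in the sko libraries and 71.0, 68.4 and 93.5 in the c libraries (log2 fold change -0.76 ± 0.12), a call lost with all 8 libraries (-0.60, edgeR adjusted p = 0.0775). Rpl7l1 read 18.1, 26.2 and 26.1 CPM in the sko libraries and 43.8, 37.2 and 42.0 in the c libraries (log2 fold change -0.92 ± 0.16). Among the small subunit genes, Rps4x read 149, 160 and 168 CPM in the sko libraries and 224, 248 and 251 in the c libraries, again without overlap (log2 fold change -0.63 ± 0.10). Rps9 was called lower at -0.44 ± 0.13, but its libraries overlapped and the call was lost without c replicate 1, c replicate 2, c_DRB replicate 3 or rhau_sko replicate 5 (edgeR adjusted p = 0.0503 to 0.101).

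The 4 genes called higher were Rps23, Rpl9, Rps19bp1 and Rps27. Rps23 read 66.6, 102 and 97.4 CPM in the sko libraries and 46.1, 44.8 and 41.8 in the c libraries (log2 fold change 0.90 ± 0.16, edgeR adjusted p = 0.00152). Rpl9 read 30.4, 68.7 and 46.4 CPM in the sko libraries and 21.6, 21.99 and 24.6 in the c libraries (log2 fold change 0.85 ± 0.21). Rps27 read 196, 316 and 265 CPM in the sko libraries and 146, 161 and 188 in the c libraries (log2 fold change 0.49 ± 0.12). In each of these genes all sko libraries were above all c libraries. Without c_DRB replicate 3, Rpl9, Rps27 and Rps19bp1 no longer passed, with edgeR adjusted p of 0.172, 0.126 and 0.119. The call of Rps19bp1 was also lost without c replicate 2, rhau_sko replicate 5 or rhau_sko_DRB replicate 7. Rplp0, Rpsa, Rps6, Rps27a, Rpl22, Rpl22l1 and Rpl17 did not pass, with log2 fold changes between -0.25 and 0.25.

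Fewer of all genes were called here than in growing oocytes (16.8% lower and 19.2% higher), and the lists around the ribosome had smaller counts too. Called were 23 lower and 8 higher of 75 genes of the mitochondrial ribosome, and 19 lower and 9 higher of 103 assembly factors. Of 17 other TOP mRNAs 3 were lower and 1 higher. Assembly factors and other TOP mRNAs, at 18.45% and 17.65% lower, were near the background. Of 26 regulators of TOP mRNAs and mTOR 7 were higher and 2 lower, with Rragd at a log2 fold change of 2.63. Ipo4 and Heatr3, import factors for ribosomal proteins, were both lower at -1.64. Of 9 genes of ribosomal stress and p53 0 were higher and 2 lower, Mdm4 at -0.59 and Bax at -1.025. Markers moved here too. The granulosa list took 0.0807% to 0.0951% of counts in the sko libraries against 0.0711% to 0.0770% in the c libraries. The oocyte list took 1.48% to 1.51% against 1.81% to 2.04%. The part of either in the values of the 80 genes was not tested.

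The growing and the second experiment share no library. Of the 37 genes called lower in growing sko oocytes 18 were also called lower in the second experiment, which is 48.6% of the first list and 78.3% of the 23 in the second. They were Rpl10, Rpl11, Rpl12, Rpl13, Rpl13a, Rpl18, Rpl19, Rpl21, Rpl32, Rpl36a, Rpl7l1, Rplp2, Rps10, Rps14, Rps4x, Rps4y2, Rps7 and Rps9. All 4 genes called higher in the second experiment were among the 6 called higher in growing oocytes, and 0 were called in opposite directions. Over all 13839 genes tested in both, 1786 were called lower in both, which is 50.5% of those lower in growing oocytes and 66.5% of those lower in the second experiment. Called higher in both were 1965, or 50.04% and 70.00% of the lists, and 188 were called in opposite directions. The shares among the ribosomal protein genes are thus near those of all genes for the growing list of lower genes. Across the 80 genes the log2 fold changes of the 2 experiments had a Pearson r of 0.783 and a Spearman rho of 0.708, and across all 13839 genes tested in both 0.706 and 0.660. These are descriptions across genes of the same libraries.

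**Figure D3:**
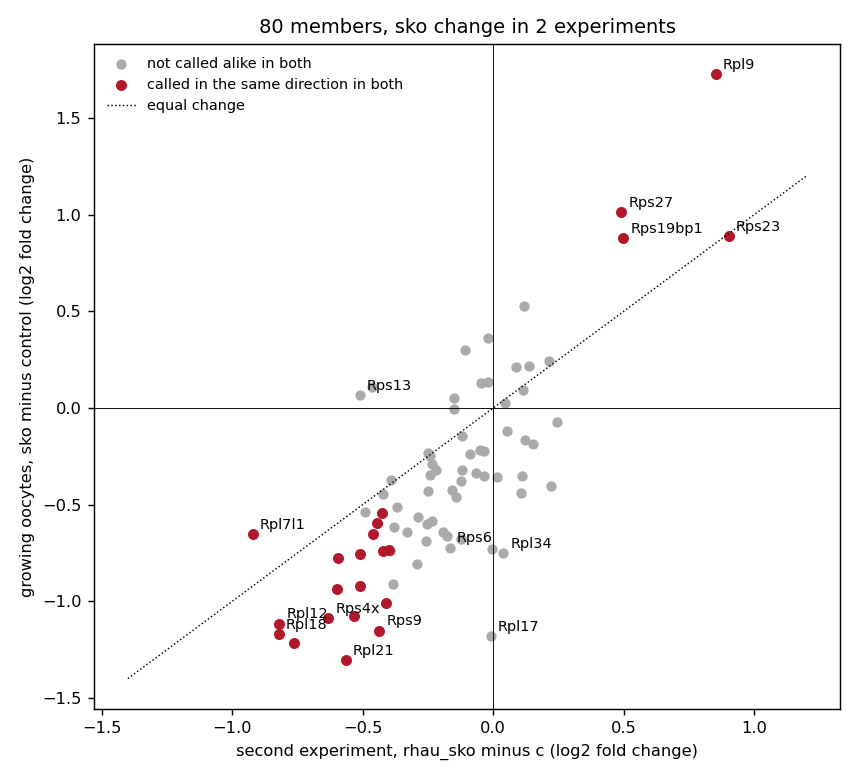
Log2 fold change of the 80 genes in growing oocytes (sko minus control, y axis) against that in the second experiment (rhau_sko minus c, x axis); red points were called in the same direction in both and the dotted line marks equal change. Rpl9, Rps27, Rps23 and Rps19bp1 lie alone at the upper right, 18 red points lie at the lower left, and Rpl17 lies at -1.18 in growing oocytes and -0.01 in the second experiment.

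The difference between the experiments was tested for each gene, over 12 libraries. The sko change of 5 genes was more negative in growing oocytes and that of 1 more positive (edgeR), with 4.91% and 7.63% of 17437 genes as background (12.5% either way). Rpl17 differed most, by -1.14 ± 0.15 on the log2 scale (adjusted p = 6.84e-05). In the second experiment it read 197, 238 and 234 CPM in the sko libraries and 200, 220 and 225 in the c libraries, which overlap. Rpl34 read 17.6, 23.3 and 23.3 CPM in growing sko oocytes and 29.5, 35.4 and 43.5 in growing controls, against 97.6, 143 and 113 in the sko and 94.4, 98.1 and 123 in the c libraries of the second experiment. Its difference was -0.76 ± 0.21. Rpl21, Rps9 and Rps6 differed by -0.71, -0.68 and -0.53.

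Rps13 went the other way, with 134, 166 and 165 CPM in growing sko oocytes and 134, 156 and 155 in growing controls, against 104, 127 and 126 in the sko and 155, 148 and 176 in the c libraries of the second experiment. Its difference of 0.61 ± 0.16 was 0.23 and no longer passed (edgeR adjusted p = 0.427) once counts of the -ps gene named after it were added. That gene held 29.8% to 31.1% of the summed counts in the sko libraries of the second experiment and 15.7% to 18.3% in the c libraries. In growing oocytes it held 11.6% to 13.4% in sko and 16.3% to 23.4% in controls. Scaled by library size alone only Rpl17 stayed lower, in a test where the median of all genes was 0.25. Without c_DRB replicate 3 or without rhau_sko replicate 5, Rpl17 was likewise the 1 gene called lower, and the calls of the other 5 named here were lost. The count called lower was 16 without growing_control replicate 1, 10 without growing_sko replicate 5, 8 without growing_control replicate 3, 3 without c replicate 1 and 2 without rhau_sko_DRB replicate 7.

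DRB was set against no DRB in the same 6 libraries, with genotype as a covariate. At an adjusted p under 0.05 edgeR called 0 of the 80 genes, where the background was 0.00596% higher and 0.00596% lower (0.0119% either way, 2 of 16784 genes). Of the 80 fold changes 78 were positive, against 50.1% of all genes, and the median log2 fold change was 0.35, against 0.00 for all genes. The 80 genes share these 6 libraries, of which 1 is c_DRB and 1 rhau_sko. Their signs are therefore not 80 separate observations. At an unadjusted p under 0.05 there were 49 of the 80 genes and 12.5% of all genes. With DESeq2, 30 of the 80 were called higher and 0 lower, where 1.64% of all genes were called higher. With edgeR and no filter on low counts, 21 were called higher, where the background was 1.04%.

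The DRB libraries lay all above the libraries without DRB for 33 of the 80 genes and all below for 0 (background 5.5% and 4.82%). Rplp2, an acidic protein of the stalk, read 121 and 104 CPM in rhau_sko_DRB and 150 in c_DRB, against 66.0 in rhau_sko and 99.8 and 102 in c. Its log2 fold change was 0.67 ± 0.12 (edgeR adjusted p = 0.113; DESeq2 3.10e-05). Rps20 read 63.7 and 60.6 CPM in rhau_sko_DRB and 71.0 in c_DRB, against 37.6 in rhau_sko and 48.5 and 50.4 in c (log2 fold change 0.62 ± 0.12). In both genes every DRB library exceeded every library without it, and within each genotype the DRB libraries were the higher.

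Rps29 and Rpl37, both small zinc-binding proteins, had log2 fold changes of 0.58 ± 0.12 and 0.64 ± 0.14. Rps29 was at 344 ± 47.5 CPM with DRB and 231 ± 10.01 without (SD, n = 3 each). Rpl37 was at 360 ± 67.2 CPM with DRB and 251 ± 41.1 without, with 1 DRB library below a c library. Rplp0, Rps6, Rps4x and Rpl22l1 had log2 fold changes between -0.01 and 0.11. Mitochondrial ribosomal protein genes had a positive fold change in 67 of 75 cases, with a median of 0.22. The other TOP mRNAs and the assembly factors had medians of 0.04 and 0.04, with 0 of 17 and 0 of 103 called. Since the genotype and DRB values come from the same 6 libraries, the 2 sets of fold changes are not independent.

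**Figure D4:**
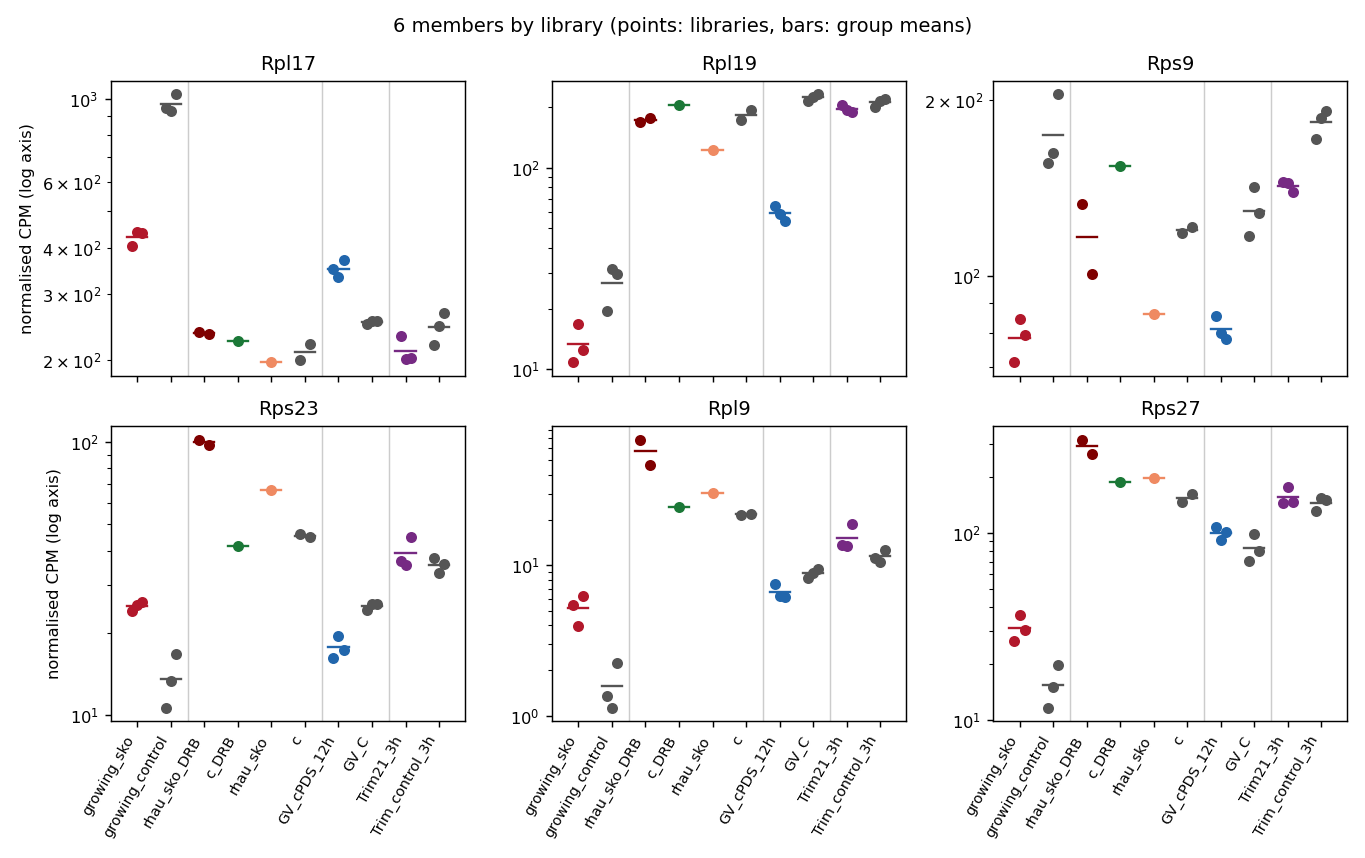
Normalised CPM (log axis) of 6 of the genes in every library, by group; points are libraries, bars are group means, and scaling was done within each experiment. Rpl17 stands at 403 to 440 in growing sko oocytes and at 929 to 1030 in growing controls, Rpl19 is below 65 in the 3 cPDS libraries and above 210 in GV_C, and Rps23, Rpl9 and Rps27 are higher in sko than in control libraries of both genotype experiments.

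In GV oocytes, the 12 h with cPDS went with small increases of many ribosomal protein mRNAs and 1 large loss, set against controls whose labels give no time. Of the 80 genes 35 were higher and 14 lower (edgeR), with 23.4% and 27.4% of 16115 genes as background (50.8% either way). The median log2 fold change was 0.17, against 0.01 for all genes, and all 35 increases were at or under 0.56. The cPDS libraries were all above for 33 genes and all below for 13, where the background was 27.4% and 30.7%. Of the genes with small subunit names 17 of 33 were higher and 7 lower, and of those with large subunit names 18 of 47 were higher and 7 lower. Without GV_C replicate 2 the median was 0.28. Without GV_cPDS_12h replicate 3 the count called lower was 9.

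Rpl19 (mm9, chromosome 11, 97888024 to 97891806, plus strand), a large subunit protein that reaches across to the small subunit, read 64.8, 59.2 and 54.1 CPM after cPDS and 214, 224 and 230 in GV_C. It was 3.75 times lower in the cPDS libraries, and no other of the 80 genes moved nearly so far (log2 fold change -1.91 ± 0.08, edgeR adjusted p = 3.61e-11). Rps9 followed with 85.4, 79.9 and 78.2 CPM after cPDS and 117, 142 and 128 in GV_C (log2 fold change -0.67 ± 0.08). Rpl36 averaged 30.3 ± 2.56 CPM after cPDS against 45.6 ± 5.31 in GV_C, and Rps23 17.7 ± 1.65 against 25.1 ± 0.773 (SD, n = 3 each). Their log2 fold changes were -0.59 and -0.51, and neither gene's groups overlapped.

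Increases were led by Rpsa, with 39.8, 49.1 and 42.2 CPM after cPDS and 29.9, 27.3 and 31.8 in GV_C (log2 fold change 0.56 ± 0.10, edgeR adjusted p = 0.000197). Rpl29 read 26.1, 30.8 and 28.97 CPM after cPDS and 19.8, 17.2 and 21.9 in GV_C (log2 fold change 0.54 ± 0.11). Rps4x and Rpl17, both among those lower in growing sko oocytes, averaged 337 ± 15.6 and 351 ± 18.4 CPM after cPDS against 241 ± 6.99 and 253 ± 2.35 in GV_C (SD, n = 3 each). None of these 4 genes overlapped between the groups. Rps27a and Rps6 rose by log2 fold changes of 0.42 and 0.36. Rplp0, Rpl22, Rpl22l1, Rpl7l1 and Rps19bp1 did not pass, at 0.10, -0.19, 0.19, 0.08 and -0.09.

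The background for the lists after cPDS was 23.4% of all genes higher and 27.4% lower. Of 103 ribosome assembly factors 52 were lower and 20 higher after cPDS, with Rrp9 and Rcl1 at log2 fold changes of -2.999 and -1.68. Of 15 elongation and termination genes 8 were higher and 6 lower, with Eif5a at -4.20 and Eef2 at -2.68. Of 16 other TOP mRNAs 8 were higher and 5 lower, and Hnrnpa1 stood at -3.86. Rps6kb1, the kinase of Rps6, was lower by -1.94. Gnb2l1 and Fau rose by 0.34 and 0.35. Of 75 mitochondrial ribosomal protein genes 27 were higher (36.0%) and 22 lower (29.3%, near the background). The oocyte markers took 3.23% to 3.59% of counts after cPDS against 2.44% to 2.63% in GV_C, and the granulosa markers 0.0544% to 0.0592% against 0.0748% to 0.0774%. The part of either in these values was not tested.

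At 3 h of Trim-Away, few of the 80 genes passed the test. In Trim21 oocytes 7 were lower and 4 higher (edgeR), with 5.23% and 6.26% of 14191 genes as background (11.5% either way). The median log2 fold change was -0.18, against -0.01 for all genes. Of the 80 fold changes 66 were negative, against 7177 of all 14191. The 80 genes share the same libraries, so these signs are not 80 separate observations. The Trim21 libraries were all below for 24 genes and all above for 9, where the background was 14.9% and 15.2%. The count called lower hung on single libraries: it was 15 without Trim_control_3h replicate 2, 1 without Trim_control_3h replicate 3, 1 without Trim21_3h replicate 1 and 2 without Trim21_3h replicate 3. Trim21_3h replicate 2, with 7452742 counts, was the shallowest library used.

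The genes lower were Rps19bp1, Rps20, Rps26, Rpl18, Rpl13a, Rplp2 and Rps9. Rps19bp1 read 64.9, 95.7 and 94.1 CPM in Trim21 oocytes and 133, 143 and 144 in their controls (log2 fold change -0.73 ± 0.15, edgeR adjusted p = 0.00694). Rps20 read 45.5, 63.7 and 60.1 CPM in Trim21 oocytes and 83.4, 81.2 and 105 in controls (log2 fold change -0.67 ± 0.15). Rps26, which lies where the mRNA leaves the ribosome, read 115, 146 and 113 CPM in Trim21 oocytes and 172, 179 and 203 in controls (log2 fold change -0.57 ± 0.13). The groups overlapped in none of the 3. The calls of Rps20 and Rps26 were lost without Trim_control_3h replicate 3 or Trim21_3h replicate 1 (edgeR adjusted p = 0.0534 to 0.0640), that of Rps26 also without Trim21_3h replicate 3 (0.0734). Rpl18 and Rps9, at -0.50 ± 0.14 and -0.36 ± 0.10, lost theirs without any of 5 of the 6 libraries, all but Trim_control_3h replicate 2. Rplp0, Rpsa, Rpl17, Rps4x, Rps27a, Rpl22, Rpl22l1 and Rpl7l1 did not pass, at -0.10 to -0.29. Rps6 was at 0.39 and did not pass, although its libraries did not overlap.

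3 large subunit genes were higher in Trim21 oocytes than in their controls. Rpl29 read 6.61, 2.95 and 5.25 CPM in Trim21 oocytes and 1.16, 1.01 and 1.05 in controls, from 211, 22 and 121 counts against 24, 20 and 16. The values did not overlap, and the log2 fold change was 2.23 ± 0.35 (edgeR adjusted p = 0.00134). Rpl21, which was lower in both sko experiments, read 40.4, 40.7 and 33.4 CPM in Trim21 oocytes and 11.5, 13.0 and 14.6 in controls (log2 fold change 1.55 ± 0.16). Rpl34 averaged 80.5 ± 9.24 CPM in Trim21 oocytes against 53.05 ± 2.52 in controls (SD, n = 3 each; log2 fold change 0.60). These 3 also passed with counts of the -ps genes added, at 2.16, 1.56 and 0.48. In all 3 the Trim controls lay further below GV_C and c than the Trim21 oocytes did. Rpl29 was at 2.84 TPM in Trim controls and 13.5 in Trim21 oocytes, against 57.8 in GV_C and 53.4 in c. Rpl21 was at 8.04 and 24.4 TPM, against 56.5 and 42.7. Rpl34 was at 94.6 and 149 TPM, against 181 and 189, but at 65.7 in growing controls. Why the Trim controls were low was not tested.

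Rps2 did not keep its change. Its own counts gave 61.0, 42.6 and 44.9 CPM in Trim21 oocytes and 20.7, 17.4 and 23.1 in controls, a log2 fold change of 1.29 ± 0.17 (edgeR adjusted p = 0.000455). The 6 genes named Rps2 with -ps held 56, 21 and 38 counts in Trim21 oocytes and 582, 534 and 650 in controls. Nearly all of the control counts, 543, 496 and 614, were in 1 of them, Rps2-ps13, which had 27, 8 and 9 in Trim21 oocytes. The -ps genes thus made up 2.80% to 6.20% of the summed counts in Trim21 oocytes and 57.7% to 65.0% in controls. The sum was 61.2, 45.5 and 47.5 CPM in Trim21 oocytes, against 49.4, 43.1 and 66.6 in controls, and the groups overlapped. With the counts added together the log2 fold change was -0.03 (edgeR adjusted p = 0.937). The share was 17.1% to 29.2% in growing sko and 20.3% to 29.1% in growing control oocytes, and 1.04% to 2.89% in the cPDS and second experiments. How reads that match several genes were counted is not given in the sources used here, so Rps2 and its near-identical copies are read as uncertain. Copies under other names were not added.

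**Figure D5:**
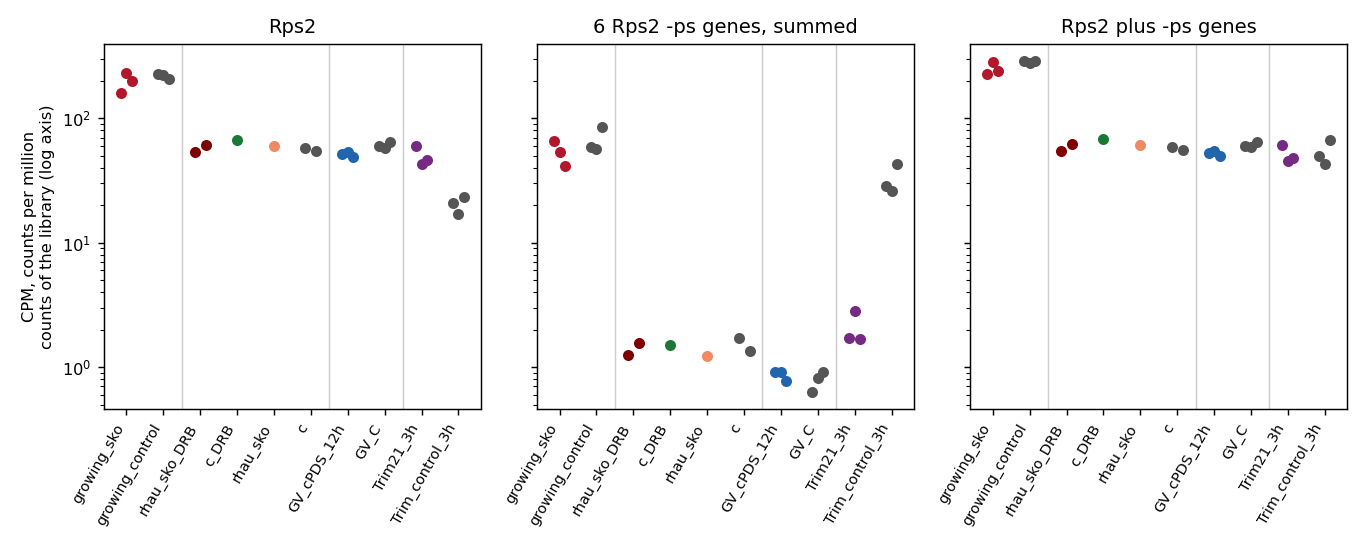
CPM (counts scaled to 1000000 per library, log axis) of Rps2, of the 6 -ps genes named after it, and of their sum in each of 24 libraries; points are libraries. In the Trim experiment Rps2 alone is higher in Trim21 oocytes and the -ps genes are higher in controls, whereas the sums overlap.

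In the Trim experiment, where 5.23% of all genes were lower and 6.26% higher, 4 of 103 assembly factors were higher and 4 lower. Of 75 mitochondrial ribosomal protein genes 5 were lower (6.67%, near the background) and 0 higher. Of 16 other TOP mRNAs 1, Eif3f, was lower at -0.70. The granulosa markers took 0.0437% to 0.0512% of counts in Trim21 oocytes against 0.0507% to 0.0555% in their controls, and the oocyte markers 2.02% to 2.11% against 2.02% to 2.27%.

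Medians by sequence class lay close together in the comparisons given here. Only 58 of the 80 genes could be classed, and Rpl21 and Rpl29, with the largest changes in Trim21 oocytes, were not among them. The 13 genes with the TOP tract and the 45 without had medians of -0.36 and -0.44 in growing sko oocytes and -0.15 and -0.23 for rhau_sko. The medians were 0.43 and 0.34 with DRB, 0.17 and 0.12 with cPDS and -0.27 and -0.17 in Trim21 oocytes. The 6 genes with the GGG pattern and the 52 without had medians of -0.41 and -0.44 in growing sko oocytes. For rhau_sko they were -0.27 and -0.18, and with cPDS 0.20 and 0.13. Rpl19 and Rps9, the genes with the largest losses after cPDS, were not among the 6. Spearman rho of log2 fold change with exon length across the 80 genes is given here as a description. It was 0.01 in growing oocytes, -0.12 for rhau_sko, -0.19 with DRB, 0.03 with cPDS and 0.15 in Trim21 oocytes. The 20 shortest and the 20 longest of the 80 had medians of -0.04 and -0.27 for rhau_sko. In growing sko oocytes these medians were -0.39 and -0.38. Among all genes tested, those of at most 847 bases had median log2 fold changes of 0.03, 0.19, 0.19 and -0.12 in the same order. Those of at least 2491 bases had 0.01, -0.01, -0.04, -0.01 and 0.01. The part of length in the medians of the 80 genes was not tested.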

How the data were processed

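Per the labels, RNA was sequenced from mouse oocytes or ovary. The deposited values are raw counts of reads for each gene, in the layout of featureCounts, per the file headers. Build mm9 and featureCounts 2.0.1, STAR 2.5.2b, HISAT2 2.1.0, cutadapt 1.15 and fastp 0.21.0 are among the tools in the submitters' processing notes, which cover the whole series and do not tie a tool to a table. Whether counting used strand, and how it treated reads that match several genes, is not given in the sources used here. The other assays were not analysed here.

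The quasi-likelihood test of edgeR 4.0.16 (R 4.3.3) was run after filterByExpr (minimum count 10) and TMM scaling. Benjamini-Hochberg adjustment covered every gene tested, and the threshold was 0.05. Standard errors are |log2 fold change| divided by the root of F. The second experiment was fitted with genotype and DRB as terms, and the Trim table on its own. Normalised CPM use TMM-scaled library sizes. The scripts were tested on simulated counts. Alternatives were DESeq2 1.42.0, library size alone, no filter, other designs, a replicate block, each library left out, and, chosen after seeing the data, addition of the counts of -ps genes.

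The members and lists were chosen with earlier results of these data known. Named genes are, per comparison, up to 4 called members with the largest change each way and no overlap, the 4 with the smallest p, a fixed panel of 11 members with Dhx36, and up to 2 called genes of each list with the smallest p. Levels name the 5 lowest members; the list of the 5 highest is not reported here. Other members, such as the rest of a short list of calls or the ends of a range, were named after their values were seen.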

Additional observations from a re-analysis of the deposited data

Results flagged for a closer look

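In 6 of the 80 genes the sko change differed between growing oocytes and the second experiment, by the edgeR test of the difference itself over 12 libraries. That is a smaller share than the 12.5% called among all 17437 genes tested. Without c_DRB replicate 3 or without rhau_sko replicate 5, only Rpl17 kept its call. The difference, growing minus second, was -1.14 on the log2 scale for Rpl17, -0.71 for Rpl21, -0.76 for Rpl34, -0.68 for Rps9, -0.53 for Rps6 and 0.61 for Rps13. The levels of the 80 genes in growing controls had a Spearman rho of 0.570 with those in c, so the order of levels differed between the experiments as well. Its part in the differences was not tested. The difference for Rps13 was 0.23 with -ps counts added.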

How the results depend on the processing

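The direction of the members' median and of the named genes called was kept in the alternatives run, except for Rps2 in Trim21 oocytes, which reversed to -0.03351 with -ps counts added. Of 1251 comparisons of a named gene with an alternative, 63 lost a call in the same direction and 19 gained one. Counts of members moved by over 1.5 times as follows. For rhau_sko, 6 were lower with all 8 libraries (of which the library labelled rhau-sko replicate 6 held Dhx36 at the level of c), 7 without DRB as covariate and 8 in the contrast with DRB, and 1 was higher in the contrast without DRB. For DRB, 30 were higher with DESeq2 and 21 without a filter. For Trim21, 13 were lower with DESeq2 and 13 without a filter. For the difference between experiments, 1 was lower by library size alone and 16 with DESeq2, 3 were higher without a filter and 0 with -ps counts added. The lowest counts of a member in any library were 16 for Rpl29, 30 for Rps21, 33 for Rpl38 and 34 for Rpl9. The causes were not tested.

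With single libraries left out, members called lower ranged from 28 to 46 and higher from 4 to 8 in growing oocytes, from 9 to 28 and 1 to 4 for rhau_sko, from 9 to 14 and 27 to 48 for cPDS, and from 1 to 15 and 4 to 5 for Trim21. For DRB both stayed at 0. For the difference between experiments they ranged from 1 to 16 and 0 to 3, and the median for cPDS from 0.10 to 0.28. A replicate block gave 30 higher and 12 lower members for cPDS and 4 and 10 for Trim21. Deviations of same-numbered libraries had correlations of -0.06 to -0.03 (GV) and -0.05 to 0.09 (Trim), and the main fits did not pair them. With 3 libraries in each group, such correlations cannot exclude a pairing.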
